A study of Mus musculus with 9 samples.

Results

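The histone genes read in polyA+ RNA of mouse embryonic fibroblasts (MEFs, fibroblasts cultured from mouse embryos) were taken from a table of 15184 genes by their names, and 35 genes matched the name pattern. Of these, 24 are clustered, replication-dependent histone genes and 7 are replacement histone genes, which are the members compared here. Another 2 are a histone H1 pseudogene, H1f11-ps, and an antisense transcript, H3f3aos. The last 2, H13 and H19, matched the pattern by spelling alone and are not histone genes. The choice used gene names and no measured value.

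Clustered histone genes lie in a few dense arrays and are transcribed mainly in S phase, when newly made DNA has to be packed into nucleosomes. Their mRNAs normally end right after a short stem-loop and carry no poly(A) tail, and the stem-loop is bound by SLBP, which the mRNA needs for processing, translation and timed decay. Replacement variants such as H3.3, H2A.Z and the linker histone H1.0 are encoded by single genes outside the arrays, are made throughout the cell cycle, and have ordinary polyadenylated mRNAs. In a polyA+ library the clustered genes are therefore seen only through the RNA that carried a tail or came along in the selection, and total histone mRNA was not measured here.

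The 9 RNA-Seq libraries comprised 3 of empty vector MEFs (Empty), 3 labelled SAM1 and 3 labelled SAM2. SAM1 and SAM2 share the genotype label Hnrnpk_SAM, and their titles mark them as separate lines. SAM is an activator system in which an inactive Cas9 and a guide RNA recruit transcriptional activators to a chosen promoter, here that of Hnrnpk, which encodes an RNA-binding protein. By the study's methods, wild-type MEFs received the lentiviral SAM and MPH vectors and were selected with blasticidin and hygromycin, and control cells carried the SAM vector with a non-targeting guide. By this account all groups shared the vectors and the drugs. The methods print the same sequence for the non-targeting guide and for sgHnrnpk2, so the sequence of the control guide is unclear. The guides against Hnrnpk were used singly, not together. The protocol in the labels speaks of empty vector and sgRNA2 cells only, and the labels do not say which guide each line carries or whether libraries of a group came from separate cultures. P-values therefore measure the spread between these libraries, which may be technical.

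Normalized counts of Hnrnpk were 25058, 26098 and 26164 in Empty, 24102, 24044 and 23619 in the libraries labelled SAM1, and 26608, 26859 and 26221 in those labelled SAM2. The libraries labelled SAM1 all lay below Empty, against the direction of their label, and those labelled SAM2 lay slightly above. The study reported overexpression in its Hnrnpk_SAM MEFs by qRT-PCR and, for the protein, by Western blot, neither of which was measured in these libraries. The log2 fold change was -0.11 in SAM1 (adjusted p = 0.00252, limma), and quantile normalization turned it to 0.09. In SAM2 it was 0.04 (adjusted p = 0.159). SAM1 and SAM2 are used below as the labels of the libraries, and no direction for a histone gene is tied to the level of Hnrnpk.

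In 8 libraries the reads on listed genes, recovered from the steps between values, numbered from 41759636 to 49026626. This could not be done for SAM2 replicate 1. Libraries of 1 group correlated with r from 0.995 to 0.997. Over 10 fibroblast markers the summed normalized count was 1175270 in Empty, 930874 in SAM1 and 1272240 in SAM2, with Fn1, Col1a1 and Col1a2 the highest. In SAM1, 8 of the 10 fell against Empty and Vim and Pdgfrb rose, where 36.9% of all genes were called lower and 37.3% higher. Lum stood at 9.87 to 13.7 in SAM1 against means of 48.5 in Empty and 47.9 in SAM2. The defining leukocyte marker Ptprc and the defining epithelial marker Epcam were not among the listed genes, nor were Adgre1, Krt5, Sox10, Elavl3, Myod1 and Myog. Of the 3 endothelial markers, Cdh5 had means of 77.6, 64.7 and 51.2 in Empty, SAM1 and SAM2. Pecam1 had 12.9, 29.5 and 12.0, with a log2 fold change of 1.14 in SAM1 (adjusted p = 0.000907), and Kdr, a VEGF receptor, was between 4490 and 4877 in SAM1, between 176 and 238 in Empty, and between 504 and 555 in SAM2. The 2 listed leukocyte markers, Cd68 and Csf1r, summed to 600 in Empty, 779 in SAM1 and 675 in SAM2, but moved apart in SAM2. Cd68 had means of 375, 527 and 564 in Empty, SAM1 and SAM2, and Csf1r had 225, 252 and 111. The single listed epithelial, neural and muscle markers were Cdh1 (means of 33.9, 88.7 and 32.4 in Empty, SAM1 and SAM2), Tubb3 (268, 796 and 569) and Des (67.7, 102 and 232). Kdr, Pecam1, Cdh1 and Tubb3, like many clustered histone genes, were higher in SAM1 than in Empty and SAM2, and the part of other cell types in the histone values was not tested. In bulk RNA, fewer cells of a type or stage and less RNA per cell cannot be told apart.

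The stem-loop was searched in GRCm39, in the 200 bases after the annotated stop codon, as 16 bases on the transcribed strand. The pattern was GGNNNNTNTNNNNNCC, in which the first 6 bases pair with the last 6 and G-T pairs are allowed. It was found in 23 of the 24 clustered genes, in 0 of the 7 replacement genes, and in 95 of 21757 protein-coding genes (0.437%). The clustered gene without it was H2bc21, an H2B gene on chromosome 3. Only 6 different strings of letters occurred, and 16 genes shared the most common one.

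One gene per string is shown, because the stem-loop is the feature that sets the mRNAs of clustered genes apart from those of replacement genes. Capitals mark the 16 bases of the match and lower case the 4 bases on either side, printed 5′ to 3′ from the GRCm39 sequence. H1f2 (chr13:23923491-23923514, plus strand) stands for the 16 genes with the common string. H2bc3 (chr13:23931182-23931205, plus strand), H3c8 (chr13:23720055-23720078, plus strand) and H4c11 (chr13:21919603-21919626, plus strand) each had a string of their own. H4c9 (chr13:22225132-22225155, minus strand) shared its string with H4c14, and H4c8 (chr13:23715624-23715647, plus strand) with H4c4.
H1f2: aaaaGGCTCTTTTCAGAGCCacca
H2bc3: caaaGGCTCTTTTAAGAGCCaccc
H3c8: taaaGGCTCTTCTTAGAGCCaccc
H4c11: taaaGGTCCTTTTCAGGACCacca
H4c9: taaaGGCCCTTTTTAGGGCCacca
H4c8: caaaGGCCCTTTTCAGGGCCgccc

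The stem-loops began between 24 and 46 bases after the stop codon. For 21 of the 23 genes, annotated exons ran on past the stem-loop, by 11 bases in H2ac4 and by up to 4884 bases in H1f3. The polyadenylation signal AATAAA lay in the last 50 bases of at least 1 annotated transcript, on the transcribed strand, in 10 of 24 clustered genes and in 7 of 7 replacement genes. Across 13000 listed protein-coding genes that share was 84.7%. The 10 clustered genes held 91.9% ± 0.316 of the clustered counts in Empty, 86.4% ± 0.206 in SAM1 and 92.5% ± 0.389 in SAM2 (SD, n = 3). H2bc21 and H1f2, the gene with the highest level, were among them.

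Compared per kb of annotated exon, replacement genes and 1 clustered gene, H1f2, held the top of the order in Empty. Exon lengths came from a later GENCODE release than the one the authors counted on, so values per kb are approximate. H3f3b, which encodes H3.3, stood at 6716 normalized counts per kb, and H1f0, which encodes the linker histone H1.0, at 4528. H1f2, a linker histone of the large chromosome 13 array, followed at 4357 and H2az1, which encodes H2A.Z, at 1627. All other clustered genes lay below every replacement gene in Empty, from 439 per kb for H2bc4 down to 2.95 for H4c14. The lowest replacement gene, H1f10, stood at 536.

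**Figure D1:**
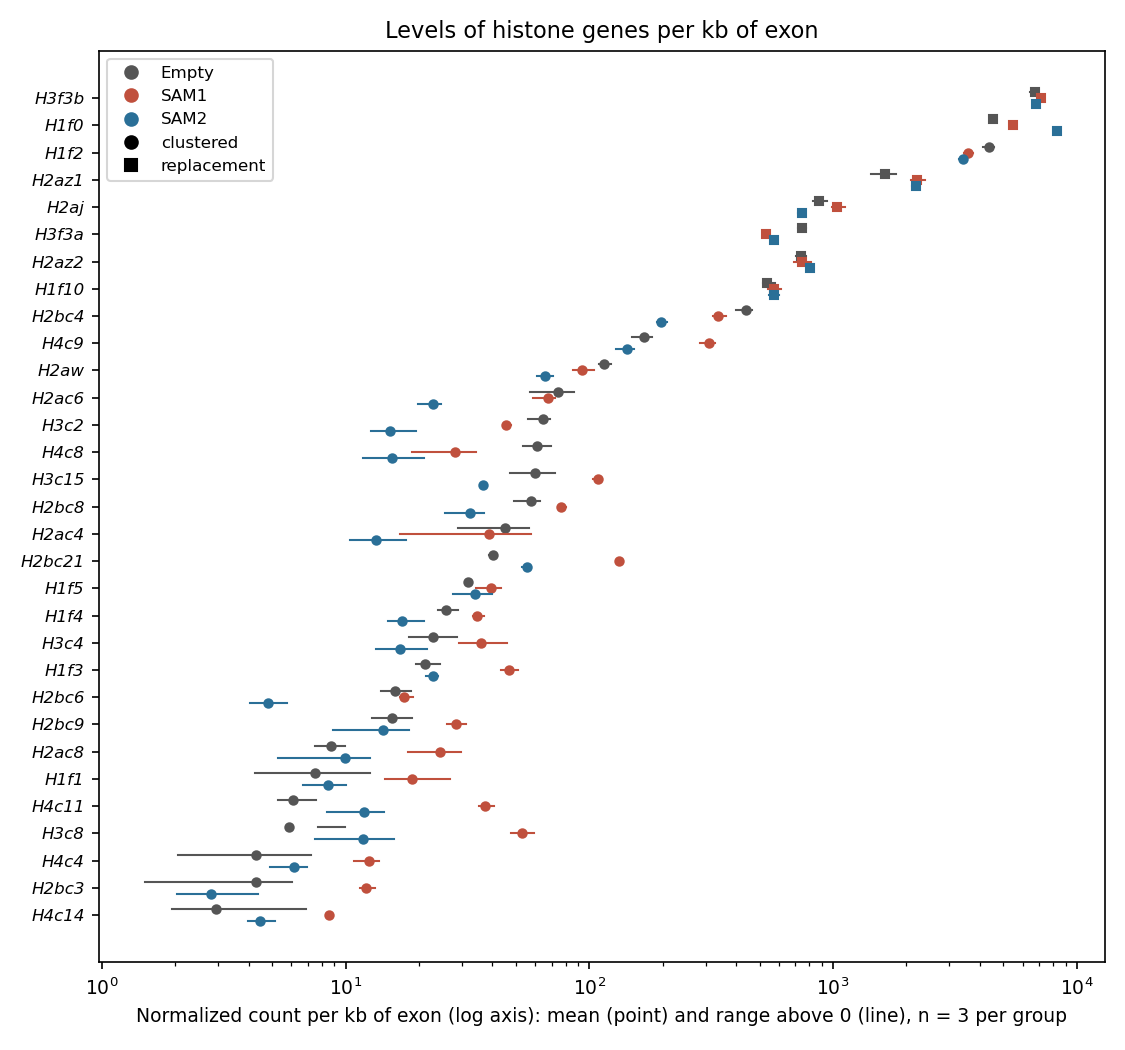
Normalized count per kb of annotated exon (log axis) for 24 clustered (circles) and 7 replacement (squares) histone genes, with the mean and the range over 3 libraries for Empty (grey), SAM1 (red) and SAM2 (blue). Replacement genes and H1f2 take the top of the order, and the blue points of the clustered genes lie left of the red ones. Counts of 0, in 1 Empty library of H3c8 and of H4c14, cannot be drawn on the log axis, so their ranges start above 0 while their means include it.

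The study compared the 6 libraries labelled Hnrnpk_SAM with the 3 Empty libraries. In that comparison, fitted with limma on log2(normalized count + 1), 3 clustered genes rose, 5 fell and 16 did not pass an adjusted p of 0.05. The genes that rose were H3c8, H4c11 and H2bc21. H1f2, H4c8, H2bc4, H2aw and H3c2 fell. Of all 15184 genes, 26.8% were called higher and 27% lower. The median log2 fold change was 0.15 over the 24 clustered genes and 0.01 over all genes. The count rested on each Empty library, and without Empty replicate 1, 2 or 3 it was 5, 3 and 3 in place of 8. H1f2 and H4c8 kept the call whichever library was left out. The authors' filter, given below, let in H4c8 only through Empty and H3c8 and H4c11 only through SAM1, so these directions are descriptions. H2bc4, H2aw, H2bc21, H4c11, H3c8 and H3c2 each lost it without at least 1 Empty library, with adjusted p up to 0.193 for H3c8 without Empty replicate 3, and H3c8 also lost it without any 1 of the SAM1 libraries and H3c2 without any 1 of the SAM2 libraries. It was 16 when the mean of the lines was fitted with a group for each line.

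The lines labelled SAM1 and SAM2 stood apart in these genes. In SAM1, 14 clustered genes rose and 4 fell against Empty, with a median log2 fold change of 0.75, where 37.3% of all genes were called higher and 36.9% lower. The authors listed genes above 10 in 30% of libraries or more, and 7 of these 14 genes (H1f1, H2ac8, H2bc3, H3c8, H4c11, H4c14 and H4c4) passed that filter through SAM1 alone, so they had to be higher there and their values in SAM1 are descriptions. The other 17 clustered genes gave 7 higher and 4 lower in SAM1, with a median of 0.29. In SAM2, 2 rose and 11 fell, with a median of -0.38, where 35.2% of all genes were called higher and 35.3% lower. Both comparisons use the same 3 Empty libraries. In both, H4c11 and H2bc21 rose and H1f2, H2bc4, H2aw and H4c8 fell, while H1f4 and H3c15 rose in SAM1 and fell in SAM2. H4c8 and H2ac4 passed the filter through Empty alone, so their lower values in the lines are descriptions.

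Compared directly, SAM2 was lower than SAM1 in 21 of 24 clustered genes and higher in 0, where 29.2% of all genes were called lower and 31.1% higher. Of the 7 genes listed through SAM1 alone, 6 were called lower, a direction fixed by the filter. The other 17 gave 15 lower and 0 higher, with a median of -1.08. Over all 24 genes the log2 differences were negative and ran from -2.05 for H3c8 to -0.06 for H1f2, with a median of -1.10. Over all genes the median was -0.01. H1f2, H1f5 and H4c14 were the 3 genes that did not pass the test. Quantile normalization gave 6 genes higher and 6 lower in SAM1 against Empty, so the excess of rises in SAM1 depended on the scaling, while SAM2 stayed lower than SAM1 in 17 genes and higher in 0.

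**Figure D2:**
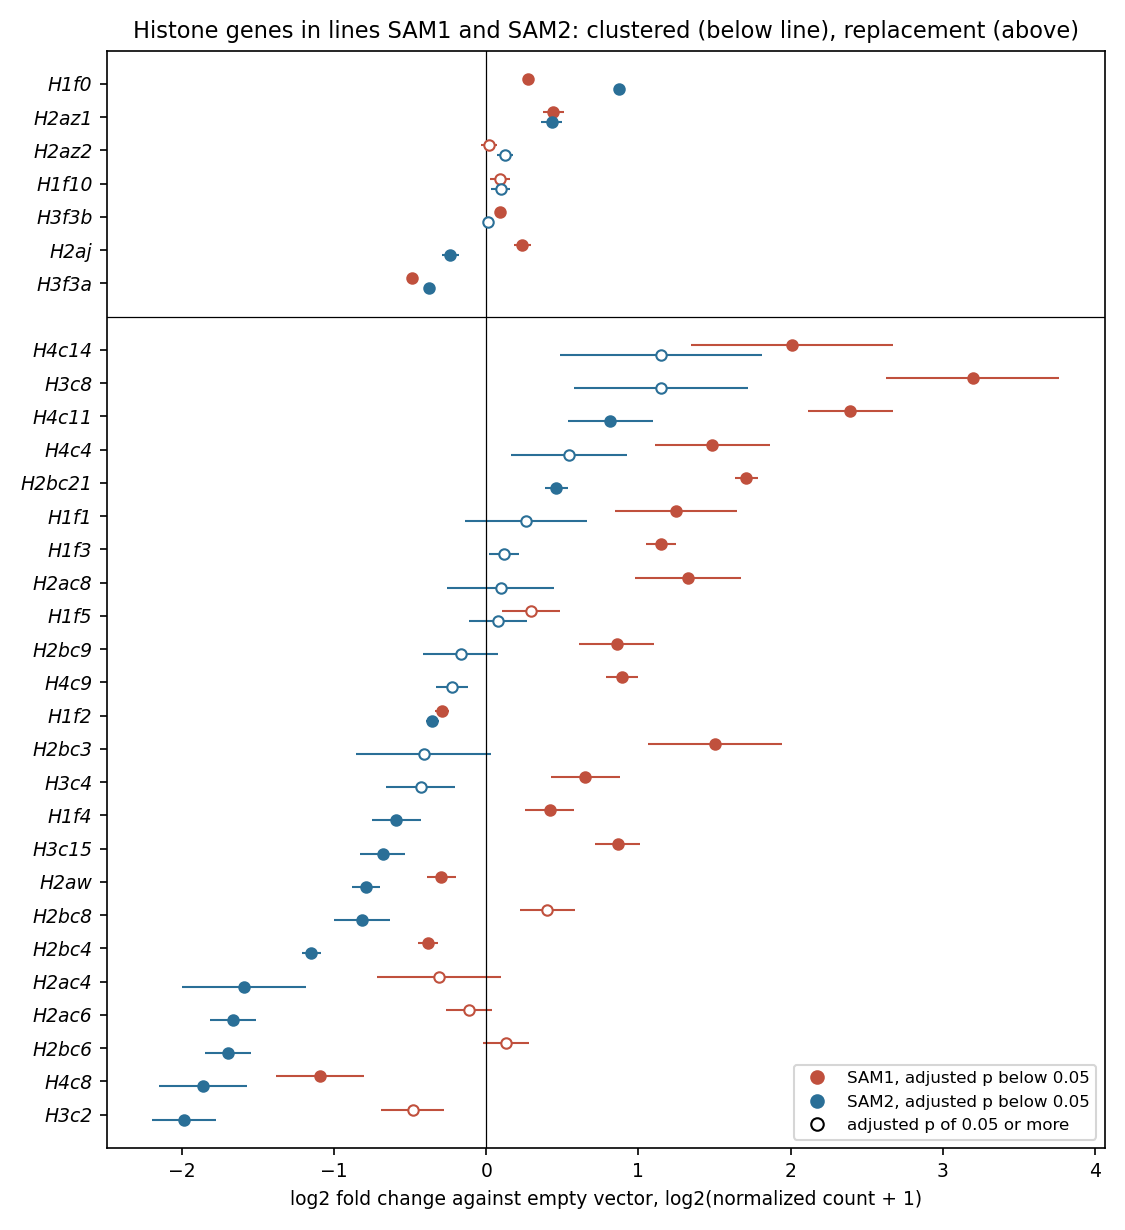
Log2 fold change of log2(normalized count + 1) against Empty for each clustered (below the line) and replacement (above) histone gene, with the standard error, for SAM1 (red) and SAM2 (blue). The blue point lies to the left of the red one for all 24 clustered genes, of which 7 were listed through SAM1 alone, which fixed their order. The replacement genes all lie between -0.49 and 0.87.

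The linker histones H1.1 to H1.5 bind the DNA that enters and leaves the nucleosome. H1f2 had normalized counts of 6411, 7150 and 6827 in Empty, 5458, 5848 and 5364 in SAM1, and 5312, 5521 and 5116 in SAM2. Both lines lay below Empty, and the lines overlapped. H1f2 fell by 0.29 on the log2 scale in SAM1 (SE 0.0452, adjusted p = 6.16e-05) and by 0.35 in SAM2 (adjusted p = 1.11e-05).

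H1f3 followed another course. It had 145, 181 and 145 in Empty, 344, 377 and 323 in SAM1, and 171, 178 and 159 in SAM2. SAM1 lay above both other groups, which overlapped. The log2 fold change was 1.15 in SAM1 (SE 0.0985, adjusted p = 1.86e-07) and 0.11 in SAM2 (adjusted p = 0.315), and SAM2 was 2.05-fold lower than SAM1 (adjusted p = 1.26e-06). H1f4 also rose in SAM1, with a log2 fold change of 0.42, and H1f1, listed through SAM1 alone, had 1.25. H1f5, at 20.4 to 32.3 in every library, passed no test. Over the 5 clustered H1 genes, 3 rose and 1 fell in SAM1, beside 37.3% higher and 36.9% lower of all genes. In SAM2, 0 rose and 2 fell, beside 35.2% and 35.3%. Between the lines, 3 were lower in SAM2 than in SAM1, beside 29.2% of all genes. H1f1 is counted among the rises in SAM1 and the lower genes between the lines.

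H2A and H2B pair as dimers on the outside of the nucleosome. H2bc4, the second clustered gene by level per kb, had 1240, 1434 and 1389 in Empty, 1003, 1119 and 995 in SAM1, and 598, 586 and 645 in SAM2. The 3 groups did not overlap. It fell by 0.38 on the log2 scale in SAM1 (SE 0.0642, adjusted p = 0.000123) and by 1.15 in SAM2 (adjusted p = 3.28e-09).

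H2bc21, the gene without a stem-loop match, moved the other way. It had 108, 106 and 102 in Empty, 349, 342 and 349 in SAM1, and 138, 151 and 147 in SAM2, again without overlap between the groups. Its rise was 3.27-fold in SAM1 (log2 1.71, SE 0.0743, adjusted p = 1.81e-10) and 1.38-fold in SAM2 (log2 0.46, adjusted p = 9.39e-05). Lower in SAM2 than in SAM1 by 1.25 on the log2 scale (adjusted p = 1.27e-08), H2bc21 shared the direction of the stem-loop genes in that comparison.

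H2bc6 had 94.1, 86.1 and 114 in Empty, 103, 103 and 116 in SAM1, and 28.7, 25.0 and 35.3 in SAM2. SAM1 overlapped Empty (log2 fold change 0.13, adjusted p = 0.445), and all SAM2 libraries lay far below. SAM2 was 3.24-fold lower than Empty (log2 -1.70, SE 0.151, adjusted p = 3.29e-07). The exons of H2bc6 overlap those of H1f4 and, on the opposite strand, H4c4 in the annotation used here. Reads on these overlaps may have been left out or given to another of these genes. The other 3 H2B genes, H2bc3, H2bc8 and H2bc9, had means under 100 and were all lower in SAM2 than in SAM1. H2bc3 was listed through SAM1 alone, so its direction was fixed by the filter.

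Of the 4 H2A genes, H2aw, the only listed clustered gene on chromosome 11, was named H2ac25 in the annotation used for coordinates. Its normalized counts were 235, 263 and 238 in Empty, 193, 224 and 185 in SAM1, and 131, 152 and 142 in SAM2. The groups formed a falling order without overlap. H2aw fell by 0.29 on the log2 scale in SAM1 (adjusted p = 0.0124, but 0.0570 without SAM1 replicate 3) and by 0.79 in SAM2 (adjusted p = 5.5e-06). H2ac4 and H2ac6 fell in SAM2, with log2 fold changes of -1.59 and -1.66, and did not pass the test in SAM1, where these were -0.31 and -0.11. H2ac4 was listed through Empty alone, so its fall is a description. H2ac8, listed through SAM1 alone, lay between 5.25 and 7.01 normalized counts in Empty and had a log2 fold change of 1.33 in SAM1.

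H3 and H4 form the tetramer at the core of the nucleosome. H3c2 had 43.0, 34.7 and 42.1 in Empty, 27.5, 29.6 and 27.3 in SAM1, and 7.91, 12.1 and 8.35 in SAM2. The 3 groups did not overlap, and SAM2 was 3.96-fold lower than Empty (log2 -1.99, SE 0.208, adjusted p = 1.62e-06). In SAM1 the log2 fold change was -0.48 (adjusted p = 0.0506).

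H3c8 had 4.09, 5.25 and 0 in Empty, 31.3, 27.6 and 25.4 in SAM1, and 3.96, 8.35 and 6.50 in SAM2. These values stand for 4, 5 and 0 reads in Empty and 33, 28 and 26 in SAM1. SAM1 lay above all other libraries, with a log2 fold change of 3.19. H3c8 was listed through SAM1 alone, so this direction was fixed by the filter. SAM2 overlapped Empty, with 1.15 (adjusted p = 0.0888). H3c15 and H3c4 rose in SAM1 by 0.86 and 0.65, and all 4 H3 genes were lower in SAM2 than in SAM1.

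H4c11 had 4.09, 4.20 and 5.84 in Empty, 31.3, 27.6 and 27.3 in SAM1, and 9.89, 6.49 and 11.1 in SAM2. SAM1 stood highest, at a log2 fold change of 2.39, and H4c11 too was listed through SAM1 alone, so this is a description. SAM2 lay between, at 0.82 (adjusted p = 0.0193). The call in SAM2 was lost without Empty replicate 1, SAM2 replicate 1 or SAM2 replicate 3 (adjusted p between 0.0502 and 0.0759), with edgeR (0.104) and DESeq2 (0.192), and under quantile normalization, where the log2 fold change was 0.43 (adjusted p = 0.169).

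H4c9, the H4 gene with the most counts, had 108, 125 and 131 in Empty, 207, 239 and 231 in SAM1, and 107, 93.7 and 110 in SAM2. It was above Empty in all 3 SAM1 libraries (log2 fold change 0.89, SE 0.104, adjusted p = 3.9e-06) and overlapped Empty in SAM2 (-0.23, adjusted p = 0.0674). H4c8 ran the other way, with 32.7, 25.2 and 28.0 in Empty, 16.1, 14.8 and 8.79 in SAM1, and 9.89, 6.49 and 5.57 in SAM2. It was lower by 1.09 in SAM1 and by 1.86 in SAM2. H4c8 was listed through Empty alone, so the filter favoured these falls and they are descriptions. The difference between the lines for H4c8, -0.77 (adjusted p = 0.036), lost its call without SAM1 replicate 1 or 2 or SAM2 replicate 2 or 3, with adjusted p between 0.0885 and 0.128. It was lost as well with DESeq2 (adjusted p = 0.0777) and under quantile normalization, where it was -0.30 (adjusted p = 0.448). H4c4 and H4c14, both listed through SAM1 alone, had 11.3 normalized counts or fewer in every Empty library.

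**Figure D3:**
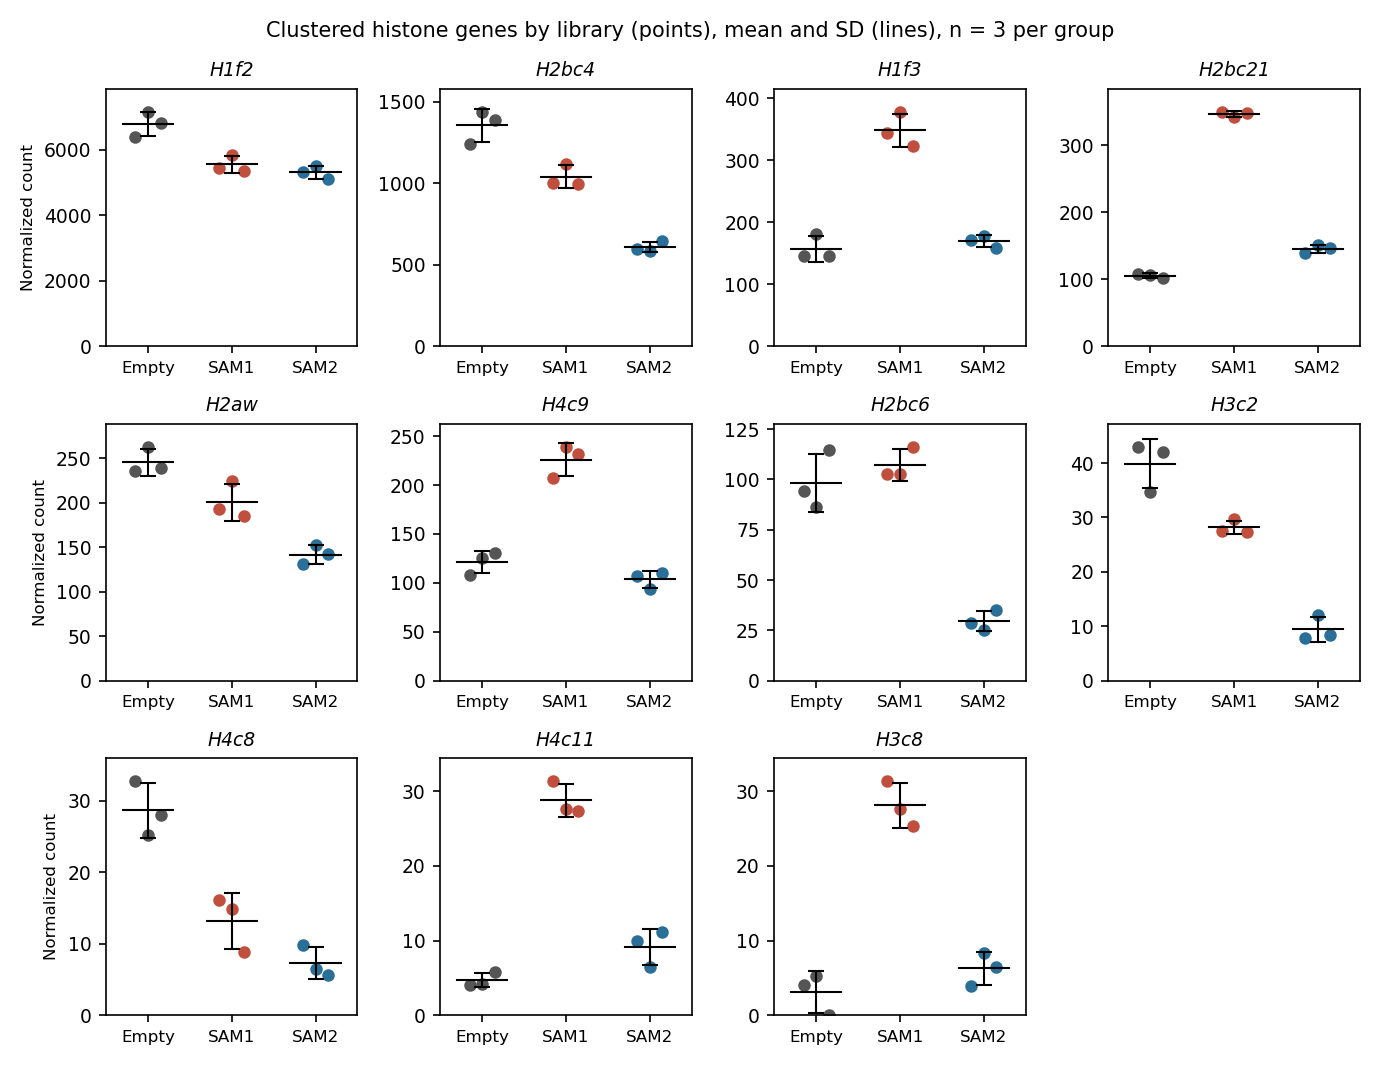
Normalized counts in each library (points) with the mean and SD of 3 libraries (lines) for the 11 clustered genes named by the rule, on axes that start at 0. H1f2, H2bc4, H2aw, H3c2 and H4c8 are highest in Empty, while H1f3, H2bc21, H4c9, H4c11 and H3c8 are highest in SAM1, and in all panels the mean of SAM2 is below that of SAM1.

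The authors' filter and the low counts bear on these numbers. The annotation names 68 protein-coding clustered genes, and the 44 that are not listed were not analysed here. The 17 clustered genes that did not depend on SAM1 for their listing are also the genes above 10 in all Empty libraries. Among them, H2ac4 and H4c8 were listed through Empty alone, so this set favours falls against Empty. The 17 genes gave 1 higher and 11 lower in SAM2, and 0 higher and 15 lower in SAM2 against SAM1, with median log2 fold changes of -0.68 and -1.08. For the pooled comparison the median over the 17 genes was -0.21, against 0.15 over the 24, so its direction turned with the choice of genes. Neither set is free of the filter.

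Clustered histone genes resemble one another, and reads of 43 bases can fit several. The share of the 43-base words of a gene's exons that occur once in the genome was lowest in H3c15 (36.2%), H3c2 (39.1%), H2ac4 (40.8%), H3c8 (43.9%) and H2bc8 (48.8%), so values of these 5 genes are uncertain. In the 19 genes with 50% or more, SAM2 was lower than SAM1 in 16 and higher in 0. Exons of 11 clustered genes overlap those of another annotated gene, among them H2ac6 with H2bc4, and whether reads were counted by strand is not given in the sources used here. The 13 genes without such an overlap gave 10 lower and 0 higher. Among the 7 genes with a mean of 100 or more, 6 were lower in SAM2 than in SAM1, as were 15 of the 17 below it. Of all genes, 29.2% were called lower and 31.1% higher. Genes listed through SAM1 alone are in each of these sets except the 7 with a mean of 100 or more. Part of the other counts was therefore fixed by the filter.

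The difference between the lines was also read for each array beside the genes around it. On chromosome 13, 17 genes lie between H4c8 and H1f1 (chr13:23715220-23948389), and their median log2 difference of SAM2 from SAM1 was -1.08. The 14 other listed genes within 1 Mb had a median of -0.26, with 2 higher and 7 lower. Against Empty, the medians of these histone genes and of their neighbours were 0.42 and 0.55 in SAM1, where 7 neighbours rose and 1 fell, and -0.43 and 0.10 in SAM2, where 5 rose and 2 fell. The neighbours thus stood as high as the histone genes in SAM1 by their medians. The second array on chromosome 13, between H4c11 and H4c9 (chr13:21919234-22225532), held 3 listed genes with a median of -1.12, and its 11 neighbours had a median of 0.00. In SAM1 against Empty its medians were 0.89 and -0.10. On chromosome 3 (chr3:96128435-96170627) the values were -1.25 for H2bc21, H3c15 and H4c14 and -0.04 for 57 neighbours, and in SAM1 against Empty 1.71 and 0.10. Around H2aw on chromosome 11 (chr11:58845511-58847656) 34 neighbours had a median of 0.17, while H2aw itself differed by -0.50. Of all genes, 37.3% were called higher and 36.9% lower in SAM1, and 35.2% and 35.3% in SAM2. Between the lines these shares were 31.1% and 29.2%. The histone medians on chromosomes 13 and 3 include genes listed through SAM1 alone. Coordinates are those of GRCm39.

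The 7 replacement genes moved less and in no common direction. In SAM1, 4 rose and 1 fell, where 37.3% of all genes were called higher and 36.9% lower. In SAM2, 2 rose and 2 fell, beside 35.2% and 35.3% of all genes, and between the lines 2 were higher and 1 lower in SAM2, beside 31.1% and 29.2%. Median log2 fold changes were 0.09 in SAM1, 0.09 in SAM2 and 0.00 between the lines. In the pooled comparison, H1f0 and H2az1 rose and H3f3a fell.

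H1f0 encodes the linker histone H1.0, which accumulates in cells that divide slowly or differentiate. Its normalized counts were 9354, 9406 and 9153 in Empty, 11134, 11444 and 11232 in SAM1, and 17368, 17236 and 16596 in SAM2. The groups rose in steps with no overlap, by 1.21-fold in SAM1 (log2 0.28, SE 0.0275, adjusted p = 8.27e-07) and by 1.83-fold in SAM2 (log2 0.87, adjusted p = 1.21e-11). SAM2 was 1.51-fold higher than SAM1 (log2 0.60, adjusted p = 1.08e-09), against the direction of the clustered genes. The pooled log2 fold change was 0.58 (adjusted p = 0.0181), and the call was lost without any 1 of the Empty libraries, with adjusted p between 0.0532 and 0.0597.

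H3f3a and H3f3b both encode H3.3, the H3 variant placed outside of replication. H3f3a had 4374, 4726 and 4537 in Empty, 3227, 3257 and 3239 in SAM1, and 3470, 3473 and 3556 in SAM2. Both lines lay below Empty, and H3f3a fell by 0.49 in SAM1 (SE 0.0326, adjusted p = 1.5e-08) and by 0.38 in SAM2 (adjusted p = 2.56e-07). H3f3b, with more than 4 times the counts of H3f3a in every library, ranged from 19246 to 20803 in Empty, from 21108 to 21731 in SAM1 and from 19897 to 20809 in SAM2. Its log2 fold change was 0.09 in SAM1 (adjusted p = 0.0268, up to 0.113 without Empty replicate 1, SAM1 replicate 1 or SAM1 replicate 2) and 0.01 in SAM2 (adjusted p = 0.708). The antisense transcript H3f3aos, which overlaps H3f3a on the opposite strand, fell in SAM2 by 1.39 and had a log2 fold change of -0.50 in SAM1 (adjusted p = 0.0886), from a mean near 32.1 in Empty.

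H2az1 and H2az2 encode the H2A.Z proteins found near promoters. H2az1 had 2897, 3674 and 3294 in Empty, 4344, 4801 and 4207 in SAM1, and 4496, 4456 and 4276 in SAM2. Both lines lay above Empty and overlapped each other, and the rise was 0.44 in SAM1 (SE 0.0706, adjusted p = 7.87e-05) and 0.43 in SAM2 (adjusted p = 0.00011). H2az2, at 2361 to 2775 in the 9 libraries, had log2 fold changes of 0.02 (adjusted p = 0.778) and 0.12 (adjusted p = 0.0521).

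H2aj, an H2A gene outside the arrays, had 1573, 1792 and 1631 in Empty, 1897, 2120 and 1871 in SAM1, and 1357, 1447 and 1436 in SAM2. SAM1 lay above Empty and SAM2 below, at log2 fold changes of 0.24 (SE 0.0572, adjusted p = 0.00212) and -0.23 (adjusted p = 0.00243). H2aj was the replacement gene that was lower in SAM2 than in SAM1, by 0.47 (adjusted p = 1.17e-05). H1f10, a linker histone gene at 627 to 747 in the 9 libraries, had log2 fold changes of 0.09 in both lines and passed no test.

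**Figure D4:**
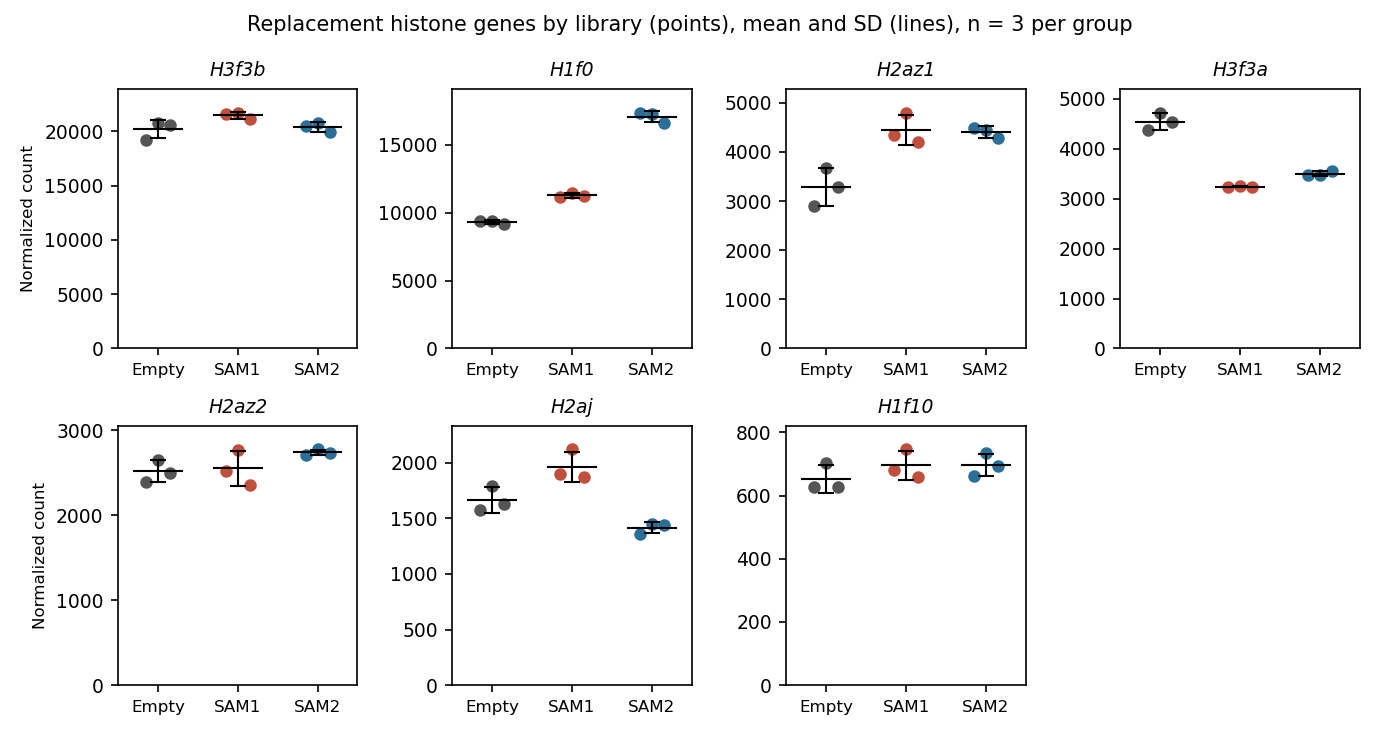
Normalized counts in each library (points) with the mean and SD of 3 libraries (lines) for the 7 replacement genes, on axes that start at 0. H1f0 rises from Empty to SAM1 to SAM2, H3f3a is highest in Empty, and H2aj is lowest in SAM2.

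Summed over genes, clustered histone RNA was lower in SAM2, and the replacement sum was higher through H1f0. The clustered sum was 9426 ± 526 normalized counts in Empty, 8553 ± 399 in SAM1 and 6813 ± 188 in SAM2 (SD, n = 3). The replacement sum was 42183 ± 1650, 45642 ± 1122 and 50232 ± 921, and without H1f0 it was 32878 ± 1639, 34373 ± 998 and 33166 ± 552, with the 3 groups overlapping. As a share of the sum of both, the clustered genes made up 18.3% ± 0.265, 15.8% ± 0.294 and 11.9% ± 0.130. The groups did not overlap in this share.

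H1f2 and H2bc4 alone held 86.5% ± 0.308 of the clustered counts in Empty, 77.1% ± 0.244 in SAM1 and 87.0% ± 0.167 in SAM2. The sum therefore followed these genes, both of which fell in both lines. Without them, the clustered sum was 1275 ± 62.6 in Empty, 1957 ± 74.8 in SAM1 and 887 ± 15.99 in SAM2, so SAM1 turned from below Empty to above it. Sums and shares were not tested.

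Genes for the supply and handling of histone mRNA are given as lists written by hand from general knowledge. Of 30 genes for histone gene transcription and 3′ end processing, 11 rose and 7 fell in the pooled comparison, with a median of 0.12, where 26.8% of all genes were called higher and 27% lower. Slbp, the stem-loop binding protein, had 3048, 3502 and 3307 in Empty, 3710, 3883 and 3641 in SAM1, and 3199, 3423 and 3331 in SAM2. SAM1 lay above both other groups, at a log2 fold change of 0.19 (adjusted p = 0.00274) against 0.02 in SAM2 (adjusted p = 0.783).

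The 4 genes of that list given next had the smallest adjusted p in the pooled comparison. That choice favours genes that move in the same direction in both lines. Casp8ap2, which acts at histone gene arrays, rose by 0.68 in SAM1 and 0.57 in SAM2, and the lines differed by -0.10 (adjusted p = 0.0358). Cramp1 rose by 0.40 and 0.43. The cleavage factor subunit gene Cpsf2 fell by 0.26 and 0.27, and the transcription factor gene Yy1 by 0.29 and 0.26.

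Of 18 listed genes for histone mRNA decay, 6 rose and 3 fell in the pooled comparison, with a median of -0.02, beside 26.8% higher and 27% lower of all genes. Eri1, an exonuclease that trims the stem-loop end, rose by 0.39 in SAM1 and 0.31 in SAM2. Lsm3 rose by 0.49 and 0.50, whereas Lsm1, another subunit of the ring that binds the tail of decaying mRNA, fell by 0.42 and 0.34. Exosc9, an exosome subunit, fell by 0.19 and 0.22.

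Among 30 genes of histone chaperones and partners, 17 rose and 4 fell in the pooled comparison, with a median of 0.21, against 26.8% higher and 27% lower over all genes. Supt16, a subunit of the FACT complex, was between 4911 and 5198 in Empty and between 8917 and 9319 in the 6 other libraries, and rose by 0.85 in SAM1 and 0.87 in SAM2. Ipo4, an importin of histones, rose by 0.57 and 0.59. Anp32e, which removes H2A.Z from nucleosomes, rose by 0.63 and 0.74, and Tonsl, which binds new histones at replication forks, by 1.33 and 1.04. Cenpa, the centromeric H3 variant outside the name pattern, rose by 1.30 and 1.09. Macroh2a1 fell by 0.20 and 0.17, and Macroh2a2 by 0.88 in SAM1 and 0.14 in SAM2, where its call was lost without SAM2 replicate 2 or any 1 of the Empty libraries, with adjusted p up to 0.131.

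S phase genes stood higher in both lines. Of 30 such genes, 27 rose and 1 fell in SAM1 and 25 rose and 2 fell in SAM2, with medians of 0.67 and 0.46. Of all genes, 37.3% were called higher in SAM1 and 35.2% in SAM2. Tyms rose by 0.61 and 0.63, Tk1 by 1.15 and 0.95, Dut by 0.73 and 0.79, and Mcm7 by 0.42 and 0.47. The first 3 supply nucleotides for DNA synthesis and Mcm7 belongs to the replicative helicase.

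Between the lines, 22 of the 30 S phase genes were lower in SAM2 than in SAM1 and 2 higher, where 29.2% of all genes were called lower and 31.1% higher. Their median was -0.22, beside -1.10 for the clustered histone genes. Thus in SAM2 the S phase list and the clustered histone genes lay on opposite sides of Empty by their medians. The part of the S phase in the histone values was not tested.

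RNAs that carry no poly(A) tail by nature, 22 listed small nucleolar and related RNAs, were read as a possible gauge of untailed RNA in the libraries. Whether the reads on these genes came from untailed RNA was not tested. Their summed normalized counts were 599 ± 13.2 in Empty, 621 ± 26.6 in SAM1 and 541 ± 28.0 in SAM2 (SD, n = 3). In SAM2 against SAM1, 0 rose and 2 fell, where 31.1% of all genes were called higher and 29.2% lower. The median log2 difference was -0.06. Snora31 rose in SAM1 and SAM2 by 1.40 and 0.88, and Rpph1 by 1.64 and 1.46. Snord104 fell by 0.53 and 0.81, and Snora73b by 0.82 and 0.79. The part of untailed RNA in the values of the clustered histone genes was not tested.

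**Figure D5:**
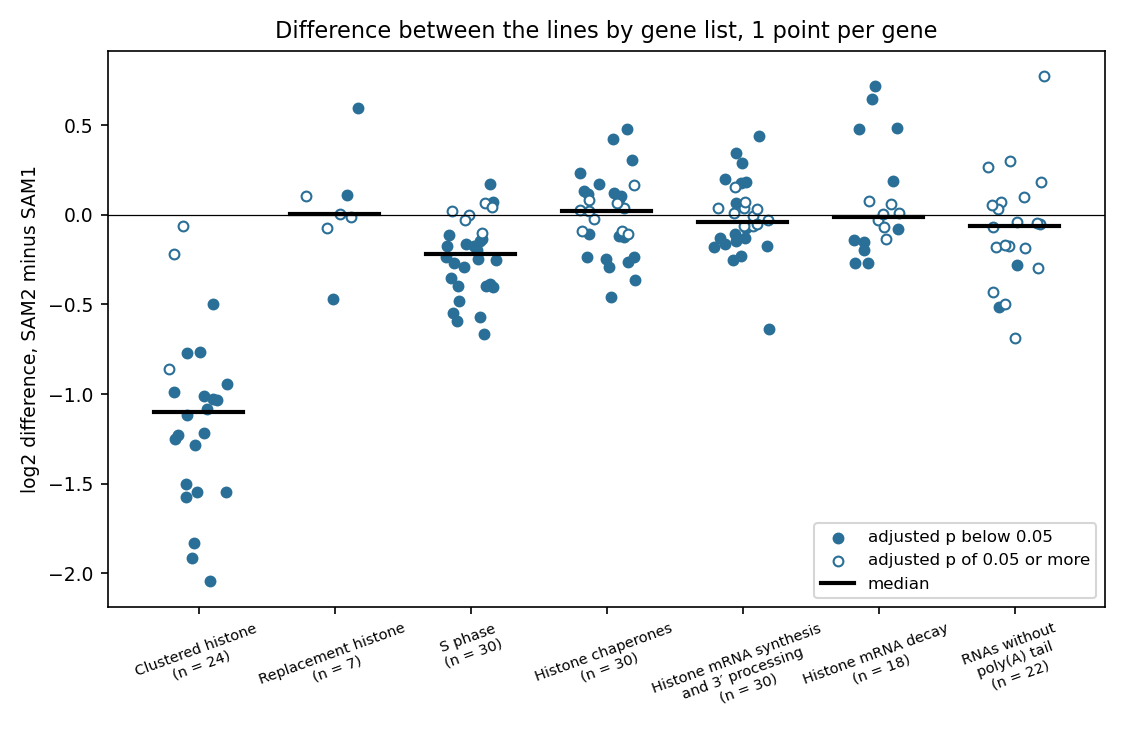
Log2 difference of SAM2 from SAM1 on log2(normalized count + 1), 1 point per gene, for clustered and replacement histone genes and 5 related lists, filled where the adjusted p was below 0.05, with the median of each list (bar). The clustered histone genes lie at or below -0.06 with a median of -1.10, and the medians of the other lists lie between -0.22 and 0.02.

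The matches that are not histone genes moved on their own. H13, which encodes a signal peptide peptidase, rose by 0.15 in SAM1 (adjusted p = 0.000605) and by 0.12 in SAM2 (adjusted p = 0.00345). H19, an imprinted noncoding RNA, had 651, 640 and 617 in Empty, 206, 208 and 188 in SAM1, and 423, 453 and 477 in SAM2. It fell by 1.66 in SAM1 (SE 0.065, adjusted p = 6.35e-11) and by 0.50 in SAM2 (adjusted p = 1.43e-05). The pseudogene H1f11-ps, on chromosome 19, ranged from 65.1 to 79.4 in Empty and from 21.8 to 44.5 in the other libraries, and fell by 1.45 and 0.91.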

How the data were processed

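PolyA+ RNA of 9 MEF libraries, grouped by the titles in the labels, was sequenced by the authors as 43-base pairs after strand-directional library preparation. The authors checked reads with FastQC (0.11.0), aligned them to GRCm39 with TopHat2 running on Bowtie2 (3 mismatches, up to 20 locations), counted them with HTSeq and divided the counts by DESeq2 size factors. The deposited values are thus a normalized signal, in units of scaled reads, for genes above 10 in 30% of libraries or more. Reads that fit several histone genes, and RNA without a tail, can be under-counted.

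Here, log2(value + 1) of all 15184 genes was fitted with limma (3.58.1, trend, R 4.3.3), and p-values were adjusted over all genes (Benjamini-Hochberg, threshold 0.05). Fold changes are on this scale and understate changes of low genes. The 6 Hnrnpk_SAM libraries were compared with Empty as in the study, and a fit with 3 groups compared the lines. In 8 libraries 100% of values were whole multiples of 1 read (within 0.1 read), and edgeR (4.0.16) and DESeq2 (1.42.0) were run on these reads. The step of SAM2 replicate 1 lay close to 1 and its reads were not recovered. Replicates of 1 group differed by more than sampling noise (chi-square per gene 1.45 to 12.9) and were counted separately.

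Named genes were all replacement genes, the 8 clustered genes with the smallest adjusted p in the pooled comparison, the 5 between the lines and the 5 with the highest mean, H13, H19, Hnrnpk, Slbp, and the 4 with the smallest adjusted p of each related list. Other members are given outside this rule. Members and lists were chosen with earlier results of these data known. All 35 members were found in GENCODE vM39, H2aw through its RefSeq promoter sequence. The authors counted reads on an earlier GENCODE release, so exon lengths and overlaps given here may differ from those behind the counts. Alternatives were another pseudocount, a stricter filter, quantile normalization, the replicate block, no trend, H2aj counted as clustered, the mean of the lines, the count tests and each library left out. Tests were checked on simulated data in which both lines changed alike. The recovery of differences between the lines was therefore not checked.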

Additional observations from a re-analysis of the deposited data

Results flagged for a closer look

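The results below were singled out because SAM1 and SAM2 differed in a test of the difference itself (limma, adjusted over all genes). Each value is the log2 difference of SAM2 from SAM1. Among clustered histone genes it was -2.05 for H3c8, -1.83 for H2bc6, -1.58 for H4c11, -1.50 for H3c2, -1.25 for H2bc21, -1.12 for H4c9, -1.03 for H1f3, -0.77 for H2bc4, -0.77 for H4c8 and -0.50 for H2aw. H3c8 and H4c11 were listed through SAM1 alone, so a lower value in SAM2 was fixed by the filter on low values and their differences are descriptions. Among replacement genes it was 0.60 for H1f0, 0.11 for H3f3a and -0.47 for H2aj, and for H19 it was 1.17. H3f3a lost the call under quantile normalization, at 0.07. H4c8 lost it under quantile normalization, at -0.30 (adjusted p = 0.448), with DESeq2 (adjusted p = 0.0777) and without SAM1 replicate 1 or 2 or SAM2 replicate 2 or 3.

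Among the other genes it was 0.15 for Hnrnpk, -0.17 for Slbp, -0.10 for Casp8ap2, -0.0811 for Eri1, 0.11 for Anp32e, -0.29 for Tonsl, -0.21 for Cenpa, 0.75 for Macroh2a2, -0.20 for Tk1, -0.28 for Snord104 and -0.52 for Snora31. Calls of Casp8ap2, Eri1, Anp32e, Snord104 and Snora31 were lost under several alternatives, Eri1 without SAM1 replicate 1 or 3 or any 1 of the SAM2 libraries, Casp8ap2 without SAM1 replicate 3 or SAM2 replicate 1 or 2, Anp32e without SAM1 replicate 1 or SAM2 replicate 3, Snora31 without SAM1 replicate 1 or 2 or SAM2 replicate 1, and Snord104 without SAM1 replicate 1 or 2 or SAM2 replicate 1 or 2.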

How the results depend on the processing

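Of the 8 clustered genes called in the pooled comparison, a filter above 10 in every library left 4, the replicate block 5, and the mean of the lines gave 16. Leaving out 1 library gave 3 to 8. The pooled median of 0.15 became 0.38 with DESeq2, 0.38 with edgeR, -0.13 with quantile normalization and -0.21 over the 17 genes above 10 in Empty, an alternative chosen after seeing the data. In SAM1 against Empty, 18 calls became 10 with the filter and 11 over the 17 genes, and the median of 0.75 became 0.41 with the filter, 0.30 with quantile normalization and 0.29 over the 17 genes. In SAM2 against Empty the median of -0.38 became -0.68 over the 17 genes. Between the lines, 21 calls became 12 with the filter, which left 14 clustered genes, and the median of -1.10 became -0.87 with a pseudocount of 10 and -0.82 with quantile normalization. Hnrnpk in SAM1 turned to 0.0944 with quantile normalization. The fewer genes tested account for fewer calls under the filter and over the 17 genes. The cause of the other changes was not tested.

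Same-numbered libraries correlated in their deviations from the group means with r from 0.00237 to 0.117, and the same number correlated best in 15 of 18 pairs of a library with another group. Mean r was 0.0531 for the same number and -0.0265 for other numbers, so same-numbered libraries shared some variation. The labels do not say what the number stands for. Not every pair passed 0.1, and the main fit left this shared variation out, while the replicate block was fitted as an alternative. The replicate block moved replacement calls between the lines from 3 to 5. Counted once per alternative, 2131 values of named genes kept their direction and call, and 94 lost the call. Another 195 summary values stayed near the main value, by a set ratio for counts and within 0.188, the replicate SD, for medians. These counts took rises and falls together. The 6 higher and 6 lower clustered genes of SAM1 under quantile normalization were thus still among the 195. Depth limits genes with a few reads per library, such as H3c8 and H4c14.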
